A study of Mus musculus with 8 samples.

Results

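Scd1, Elovl3, Pparg, Soat1 and Fa2h are 5 genes of the lipid program of the sebaceous gland. They were followed here through every probe set that carried exactly 1 of these symbols in the authors' deposited comparison table. These were 8 probe sets, 2 of Scd1, 3 of Soat1 and 1 of each other gene, out of 1803 tested probe sets with exactly 1 symbol (1396 symbols) and 45101 on the array. The samples were newborn epidermis of C57Bl/6 mice, separated from the dermis and measured as total RNA on Affymetrix 430 2.0 arrays. One group of 4 had the genotype IR-/-, IGF-1R-/- (called dKO), lacking the insulin receptor and the receptor for insulin-like growth factor 1, and the other group of 4 was wild type (control). The labels call the samples of a group biological replicates, name no treatment, and do not say whether a sample is 1 animal or a pool. They do not name the promoter or Cre line by which the receptors were deleted, or the cells in which they were deleted. The comparison asks which transcripts differ in the epidermis when both receptors are missing.

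Sebaceous glands grow out of the hair follicle, and their cells fill with lipid and burst to release sebum, a mixture of wax esters, triglycerides, cholesteryl esters and related lipids. PPARG is a nuclear receptor needed for sebocytes to mature. SCD1 and ELOVL3 desaturate and lengthen fatty acids, FA2H adds a hydroxyl group to them, and SOAT1 joins fatty acids to cholesterol. In mice, loss of Scd1 is known for shrunken sebaceous glands, and loss of Elovl3 for a sparse coat with altered sebum. Insulin and insulin-like growth factor 1 are known to promote lipid production in cultured sebocytes.

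Promoter windows of Soat1 and Pparg, an enzyme and the regulator of the set, were in the RefSeq table used (build GRCm38.p6), 4 windows in all, each from 250 bases before to 50 bases after a transcript start. They are shown because all 5 genes were lower in dKO and these are the stretches in which the starts of both genes could be compared. Scd1, Elovl3 and Fa2h are named only. Capitals mark every match, on either strand, to any of 7 motifs. The GC box was searched as GGGCGG and the CCAAT box by its own letters. The TATA box was searched as TATAAA and the E box as CACGTG. The core motif of nuclear receptors was searched as AGGTCA. The forkhead motif was searched as TGTTTAC, and the sterol response element as TCACNCCAC. The Soat1 window lies at chr1:156474279-156474578 on the minus strand and the Pparg windows, on the plus strand, at chr6:115360894-115361193 (first) and chr6:115421816-115422115 (last).
Soat1: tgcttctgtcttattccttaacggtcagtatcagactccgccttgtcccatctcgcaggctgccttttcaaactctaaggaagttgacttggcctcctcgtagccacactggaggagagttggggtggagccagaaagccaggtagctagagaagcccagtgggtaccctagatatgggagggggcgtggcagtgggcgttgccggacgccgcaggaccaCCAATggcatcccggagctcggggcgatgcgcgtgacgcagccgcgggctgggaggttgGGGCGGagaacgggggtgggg
Pparg, first start: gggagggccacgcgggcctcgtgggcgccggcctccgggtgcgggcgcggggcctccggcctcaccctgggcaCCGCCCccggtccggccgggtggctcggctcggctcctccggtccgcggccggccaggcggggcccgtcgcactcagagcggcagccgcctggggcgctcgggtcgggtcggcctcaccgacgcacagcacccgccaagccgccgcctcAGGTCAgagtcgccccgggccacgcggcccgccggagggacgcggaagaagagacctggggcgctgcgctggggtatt
Pparg, last start: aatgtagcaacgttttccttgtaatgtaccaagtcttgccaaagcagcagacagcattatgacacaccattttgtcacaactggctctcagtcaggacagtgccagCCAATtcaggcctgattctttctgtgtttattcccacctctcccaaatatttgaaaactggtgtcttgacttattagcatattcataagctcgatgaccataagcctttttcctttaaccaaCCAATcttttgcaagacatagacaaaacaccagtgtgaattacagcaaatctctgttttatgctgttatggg

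The starts differed in base composition. The Soat1 window held 62.0% G or C and 19 CpG dinucleotides, with a CCAAT box 30 bases before the start and a GC box from base 30 after it. The first Pparg window held 80.3% G or C and 44 CpG, more G or C than 99.1% of the 32851 windows in the table, with a GC box on the opposite strand and a nuclear receptor motif 28 bases before the start. The last Pparg window held 40.3% G or C and 2 CpG and matched only the CCAAT box, at 144 and 22 bases before the start. The remaining Pparg window, at chr6:115362099-115362398, held 62.7% G or C with 13 CpG, and matched the GC box, the CCAAT box, the TATA box and the nuclear receptor motif. No overlap between matches to different motifs was seen in the 3 printed windows. Over all windows a match was found in 35.7% for the GC box, 37.4% for the CCAAT box, 13.6% for the TATA box, 16.3% for the nuclear receptor motif, 7.15% for the E box, 3.65% for the forkhead motif and 1.24% for the sterol response element. The letters of the last 3 motifs were in none of the 4 windows. The matches describe the letters only, and binding was not measured.

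The deleted receptors were checked first. Insr signals were 301.9, 309.6, 226.6 and 176.1 in control replicates 1 to 4 and 71.9, 87.6, 50.7 and 80.9 in dKO, a log2 difference of -1.79 (SE 0.234, limma adjusted p = 0.00319). On its brightest probe set, Igf1r signals were 456.0 to 707.0 in controls and 314.7 to 369.1 in dKO, a log2 difference of -0.76 (SE 0.143, adjusted p = 0.0176). Of the other 3 Igf1r probe sets, 1 fell (log2 difference -0.98, adjusted p = 0.00438), and the remaining ones differed in opposite directions without passing (-0.65, adjusted p = 0.0597, and 0.88, adjusted p = 0.061). The dimmest read 57.2 to 95.5 in controls and 124.7 to 175.2 in dKO, so it went against the label. Whether these probe sets lie in the deleted part of the gene is not known here. Krt15, a keratin of basal keratinocytes picked for this check after its values were seen, read 8105.6 to 13338.1 in controls and 2910.4 to 4921.7 in dKO. It thus fell itself, with no overlap (log2 difference -1.66, SE 0.185, adjusted p = 0.00136), and its part in the results below was not tested. None of 8 listed keratinocyte markers had a symbol here. Array medians lay between 40.7 and 51.7, and a measure of RNA quality, the signal at the 3 prime end over the 5 prime end of Actb and Gapdh, had log2 values of -0.004 to 0.248 in controls and -0.039 to 0.054 in dKO (exact two-sided permutation p = 0.171).

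All 5 sebaceous gland lipid genes were lower in the dKO epidermis, by 4.16-fold to 16.2-fold on their brightest probe sets. The highest value belongs to Pparg, whose dKO signals were dim, and with 32 units added before the logarithm its fall was 2.25-fold, the smallest of the 5. On the plain scale the fall was 16.2-fold for Pparg, 13.3-fold for Fa2h, 10.2-fold for Elovl3, 7.68-fold for Scd1 and 4.16-fold for Soat1, as ratios of geometric means. All 8 probe sets fell at an adjusted p under 0.05 in limma, where 1.25% of all 45032 tested probe sets fell. In all 8 every dKO array lay below every control, which was so for 5.93% of all tested probe sets. Because the symbols came from a table in which the authors had selected probe sets on these same arrays, a closer background is the 1396 named genes, of which 22.3% fell. The median log2 difference was -3.35 over the 5 brightest probe sets, -0.59 over the named genes and -0.07 over all tested probe sets. The selection also means that the direction of these genes is not independent evidence. In bulk epidermis, fewer sebocytes and less RNA per sebocyte cannot be told apart, and which cells gave these signals was not measured.

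**Figure D1:**
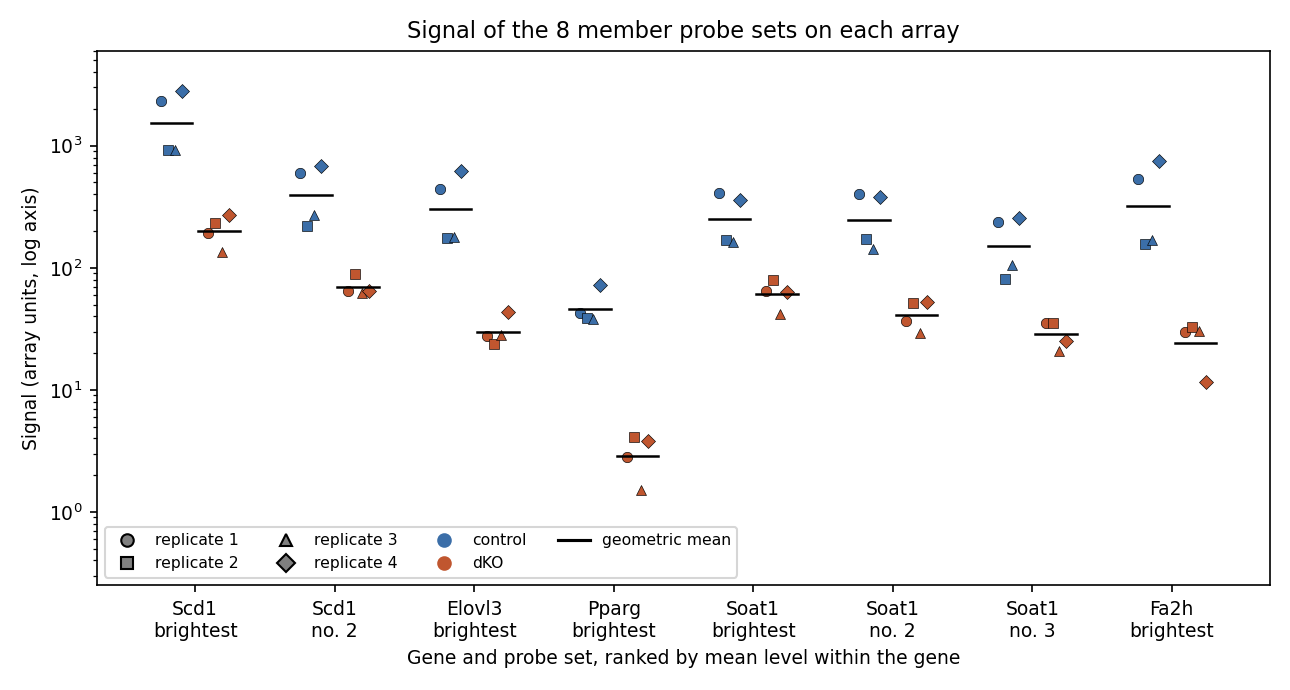
Deposited linear signal (array units, log axis) of the 8 probe sets on each array, controls in blue and dKO in orange, symbols for replicate numbers and bars for geometric means (4 arrays each). Every dKO array sits below every control in each probe set, and control replicates 1 and 4 sit highest in all of them.

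Pparg, the nuclear receptor of the set, had control signals of 42.6, 38.4, 38.1 and 72.3 and dKO signals of 2.8, 4.1, 1.5 and 3.8 in replicates 1 to 4. The groups did not overlap, the lowest control being 9.29 times the highest dKO array, and control replicate 4 stood above the other controls. Means were 47.85 ± 16.43 in controls and 3.05 ± 1.173 in dKO (SD, n = 4 each), a log2 difference of -4.02 (SE 0.577, adjusted p = 0.00466). Pparg was dim. Its dKO signals lay between the 5.35 and 12.5 percentile of their arrays, and its controls between the 44.0 and 55.4 percentile. With 32 added, which damps differences among dim signals, the fall kept its call (log2 difference -1.17, SE 0.156, adjusted p = 0.00593). The authors' deposited table gave Pparg a ratio of 0.511, a 1.96-fold fall with an unadjusted p of 0.0257. Thus the call of a fall held on either scale, and the size of it did not.

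Scd1, the desaturase that makes monounsaturated fatty acids, had control signals of 2343.5, 927.6, 930.9 and 2801.0 and dKO signals of 192.8, 233.1, 134.8 and 269.4. Control replicates 1 and 4 were high and 2 and 3 lower, and even the lowest control was 3.44 times the highest dKO array. Means were 1751 ± 966.8 and 207.5 ± 57.7 (SD, n = 4 each), a log2 difference of -2.94 (SE 0.346, adjusted p = 0.0018). The other Scd1 probe set read 599.8, 221.0, 269.5 and 679.6 in controls and 65.1, 89.5, 61.9 and 65.0 in dKO. It repeated the order of the controls in high and low arrays and gave a 5.67-fold fall (log2 difference -2.50, SE 0.325, adjusted p = 0.00315). Scd1 was the gene whose value depended least on the added 32 units, with a log2 difference of -2.76 on that scale (adjusted p = 0.00462). The authors' deposited table gave ratios of 0.154 and 0.164 for its probe sets.

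Elovl3, which lengthens saturated and monounsaturated fatty acids to very long chains, had control signals of 443.1, 176.1, 178.6 and 616.7 and dKO signals of 27.6, 23.8, 28.0 and 43.3. The controls fell into the same high and low arrays as for Scd1, and the lowest was 4.07 times the highest dKO array. Means were 353.6 ± 215.5 and 30.68 ± 8.627 (SD, n = 4 each), a log2 difference of -3.35 (SE 0.388, adjusted p = 0.00173), or 9.81% of the control level. With 32 added the log2 difference was -2.45 (SE 0.337, adjusted p = 0.00666). The authors' deposited table gave a ratio of 0.144, a 6.94-fold fall.

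Fa2h, the hydroxylase of fatty acids that enter ceramides and other lipids, had control signals of 530.4, 157.2, 169.8 and 748.5 and dKO signals of 29.6, 32.6, 30.5 and 11.5. The groups did not overlap, controls 1 and 4 were again high, and dKO replicate 4 was the lowest array. Means were 401.5 ± 288.9 and 26.05 ± 9.781 (SD, n = 4 each), a log2 difference of -3.73 (SE 0.504, adjusted p = 0.0037). With 32 added it was -2.65 (SE 0.412, adjusted p = 0.0111). The authors' deposited table gave a ratio of 0.181, a 5.54-fold fall.

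Soat1, the enzyme that esterifies cholesterol, was measured by 3 probe sets. The brightest read 413.7, 167.8, 161.3 and 360.3 in controls and 65.1, 78.7, 41.6 and 63.1 in dKO. Its groups came nearest to each other, the lowest control being 2.05 times the highest dKO array. Means were 275.8 ± 130.3 and 62.12 ± 15.34 (SD, n = 4 each), a log2 difference of -2.06 (SE 0.322, adjusted p = 0.0069). The next probe set read 400.5, 172.1, 141.3 and 378.6 against 36.9, 51.1, 29.1 and 52.6, a 5.98-fold fall (adjusted p = 0.0037). The dimmest read 235.2, 81.1, 105.3 and 257.8 against 35.5, 35.4, 20.7 and 25.2, a 5.30-fold fall (adjusted p = 0.00771). All 3 probe sets thus fell with no overlap and with high controls 1 and 4, while the fold differed among them. The authors' deposited table gave ratios of 0.317, 0.161 and 0.236 in the same order.

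These calls relied on the variance model. Without limma's intensity trend, adjusted p was 0.0743 for Scd1, 0.0655 for Elovl3, 0.106 for Soat1 and 0.0834 for Fa2h, and only Pparg, at 0.0278, stayed under 0.05. With 32 added all 8 probe sets fell, where 1.09% of all tested probe sets fell, and the 5 genes' ranks among the 1396 named genes by log2 difference, counted from the lowest, changed from 9 to 109 for Pparg, 13 to 9 for Fa2h, 16 to 14 for Elovl3, 31 to 6 for Scd1 and 81 to 42 for Soat1.

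Whether the 5 genes fell by different amounts was tested on the within-array log2 ratio of each of the 10 gene pairs, with an exact two-sided permutation test over the 70 assignments of the arrays. The difference between dKO and control was -0.88 for the ratio of Scd1 to Soat1, -1.29 for Elovl3 to Soat1, -1.96 for Pparg to Soat1 and 1.68 for Soat1 to Fa2h. Each of these, and Scd1 to Pparg at 1.08, had an exact p = 0.0286, the smallest this design can give, and an adjusted p of 0.0571 over the 10 pairs, so none passed. For pairs at this floor the adjusted p was set by how many pairs reached it, here 5. It therefore cannot decide whether these 5 pairs differed. For Scd1 and Elovl3 the difference was 0.41 (p = 0.114), for Scd1 and Fa2h 0.79 (p = 0.143), for Elovl3 and Pparg 0.67 (p = 0.171), for Elovl3 and Fa2h 0.38 (p = 0.857) and for Pparg and Fa2h -0.28 (p = 0.686), by the same exact test. With 32 added, 6 pairs reached the same floor and so had an adjusted p of 0.0476. The change in call between the scales follows from that count of pairs. Among these 6, Scd1, Elovl3 and Fa2h each fell more than Soat1 (differences of -1.13 for Scd1 and -0.83 for Elovl3). On that scale Scd1, Elovl3 and Fa2h also fell more than Pparg (-1.59, -1.29 and, for Pparg to Fa2h, 1.48), while Pparg to Soat1 turned to 0.45 (exact permutation p = 0.171). The place of Pparg in the order therefore turned with the scale. These pairs used the brightest probe sets, and the order of Soat1 and Scd1 also turned with the probe set, since the second Soat1 probe set fell 5.98-fold and the second of Scd1 5.67-fold. In the authors' deposited table those were 6.19-fold and 6.08-fold, and Fa2h was 5.54-fold, so the full order of the 5 genes was not the same across probe sets and scales.

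The controls themselves were far apart. From the lowest to the highest control, signals spanned a log2 range of 2.25 for Fa2h, 1.81 for Elovl3, 1.59 for Scd1, 1.36 for Soat1 and 0.92 for Pparg. The log2 SD among controls was 1.143 for Fa2h, 0.921 for Elovl3, 0.851 for Scd1, 0.716 for Soat1 and 0.44 for Pparg. Among probe sets at or above the median level (a mean log2 signal of 5.45, or 43.7 units) the median control SD was 0.221, and the Fa2h, Elovl3, Scd1 and Soat1 values lay at percentiles 99.3, 98.6, 98.3 and 97.0. Pparg lay below that level, and its control SD stood at percentile 87.2 of the same distribution. In dKO the log2 SD was lower for Elovl3 (0.372), Scd1 (0.432), Soat1 (0.388) and Fa2h (0.715) and higher for Pparg (0.66), with a median of 0.238 over the brighter probe sets. These differences in spread were not tested.

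The spread followed the array. As deviations from the mean of their own group, the mean log2 signal of the 5 genes stood at 0.49, -0.68, -0.67 and 0.85 in control replicates 1 to 4. In dKO it stood at 0.04, 0.25, -0.36 and 0.07. Scd1, Elovl3, Soat1 and Fa2h were above their mean in control replicates 1 and 4 and below it in 2 and 3, whereas Pparg was above it in control replicate 4 alone. The dKO arrays had no such common order, Pparg, Scd1 and Soat1 being lowest in replicate 3, Elovl3 in replicate 2 and Fa2h in replicate 4.

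**Figure D2:**
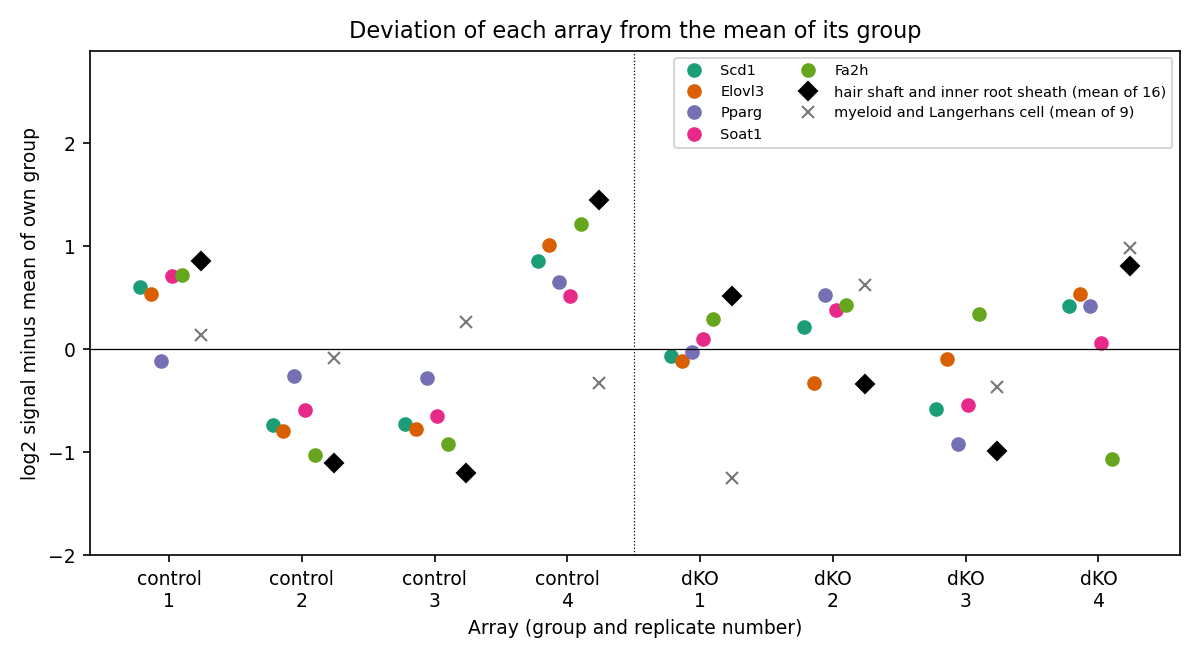
Log2 signal minus the mean of the array's own group (vertical axis) on each of the 8 arrays, for the brightest probe set of each of the 5 genes and for the means of 16 hair and 9 myeloid genes. The 5-gene mean runs from -0.68 to 0.85 over controls and from -0.36 to 0.25 over dKO. The hair mean runs from -1.20 to 1.45 over controls and from -0.99 to 0.81 over dKO.

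Likeness between genes was described by Pearson r over the 8 arrays of these deviations, which leave out the group difference. The 8 points share their libraries and array scaling, so r is given without a p. Against the mean of the other 4 genes, r was 0.946 for Scd1, 0.915 for Soat1, 0.799 for Elovl3, 0.592 for Fa2h and 0.559 for Pparg. Without the 2 arrays farthest from the median of that mean (6 left), r was 0.903 for Scd1 and 0.968 for Soat1, and dropped to 0.559 for Elovl3, 0.342 for Pparg and 0.223 for Fa2h, whose values thus rested on those arrays.

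Of 22516 probe sets at or above the median level, 2.98% had an r of at least 0.8 with the mean deviation of the 5 genes, and of 1214 named genes other than these 5 it was 3.71%. The 6 named genes with the highest r were S100a1, Krtap8-1, Krt32, Krtap3-3, Cyp2g1 and Igfbp7. Cyp2g1, a cytochrome P450 gene, had an r of 0.96 and control signals of 980.6, 293.6, 353.0 and 1500.8 against 24.8, 35.2, 26.3 and 39.0 in dKO. It fell by 4.35 on the log2 scale (SE 0.437, adjusted p = 0.000703), with the same high control arrays. Krtap8-1, a keratin-associated protein gene of the hair shaft, had an r of 0.971 and read 811.7, 124.0, 114.3 and 2135.3 in controls and 26.6 to 36.2 in dKO (log2 difference -3.63, SE 0.747, adjusted p = 0.0267). Krt32, a hair keratin, had an r of 0.969 and also fell (log2 difference -1.39, SE 0.327, adjusted p = 0.0475). S100a1, a calcium-binding protein gene (r 0.978, log2 difference -0.86, adjusted p = 0.159), and Krtap3-3 (r 0.961, -3.12, adjusted p = 0.0704) did not pass. Igfbp7, which encodes a secreted IGF-binding protein, had an r of 0.956 but rose, from 318.4, 231.7, 197.2 and 340.2 to 427.4, 490.7, 408.1 and 462.7 (log2 difference 0.75, adjusted p = 0.0449). With 32 added the calls of Krt32, Krtap8-1 and Igfbp7 were lost (adjusted p = 0.0708, 0.0747 and 0.0546), and that of Cyp2g1 was kept (adjusted p = 0.00428). Likeness within groups therefore did not fix the direction between groups.

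The 5 genes belong to a list of 22 sebocyte genes, of which 8 had a symbol here, and 7 of these 8 fell, 0 rose and Mgst1 did not pass. The median log2 difference of the 8 was -2.50. Over all 1396 named genes 22.3% fell, and 5 of the 7 are the genes already described. The members beyond the 5 were Adfp, Far2 and Mgst1. Adfp (now Plin2), a coat protein of lipid droplets, read 806.1, 482.3, 473.7 and 1126.5 in controls and 273.1, 212.1, 205.0 and 264.2 in dKO. It had no overlap, the same high controls, and a log2 difference of -1.51 (SE 0.247, adjusted p = 0.00866). Far2, a fatty acyl-CoA reductase that makes the alcohols of wax esters, read 299.9, 87.7, 193.9 and 542.2 against 54.9, 76.7, 38.3 and 58.2 (log2 difference -2.05, SE 0.442, adjusted p = 0.033). On this probe set Far2 lost its call with 32 added (log2 difference -1.61, adjusted p = 0.0605). The dimmer Far2 probe set fell too (log2 difference -3.09, SE 0.676, adjusted p = 0.0354). Mgst1, a microsomal glutathione transferase, read 1451.4 to 3248.2 in controls and 825.6 to 1293.9 in dKO (log2 difference -0.96, adjusted p = 0.0699). Of these 3 genes, Adfp and Far2 had an r of at least 0.8 with the 5-gene mean (0.923 and 0.905), and Mgst1 had 0.785.

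Among desaturases and elongases, 4 of 20 listed genes had a symbol, Scd1, Elovl3, Fads6 and Fads3, of which 3 fell, Scd1 and Elovl3 among them, and 0 rose, against 22.3% of named genes that fell. Fads6, a member of the fatty acid desaturase family, read 123.8, 138.4, 115.4 and 173.7 in controls and 30.8, 46.0, 37.4 and 54.3 in dKO. Its controls were close together, unlike those of Scd1, and it fell by 1.73 on the log2 scale (SE 0.251, adjusted p = 0.00491), although its dimmer probe set did not pass (-1.45, adjusted p = 0.104). Fads3, of the same family, differed by -2.53 (SE 0.71, adjusted p = 0.0964). Of 28 genes of fatty acid and triglyceride synthesis only Acsl4, a long-chain acyl-CoA synthetase, had a symbol, and it did not pass (-1.02, adjusted p = 0.0626). Genes with no symbol here were not analysed, and nothing is known here of their change.

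Fa2h also acts on ceramides of the epidermal barrier, and most named genes of that group were higher in dKO. Of 28 listed ceramide and barrier lipid genes 5 had a symbol, and 3 rose, where 0.993% of all tested probe sets and 19.4% of the named genes rose, while Fa2h fell and Degs1 did not pass. Ugcg, the glucosylceramide synthase, read 402.1, 340.5, 345.2 and 467.6 in controls and 1318.6, 773.0, 986.5 and 578.2 in dKO, a log2 rise of 1.18 (SE 0.214, adjusted p = 0.0147). Its other 2 probe sets rose too (adjusted p = 0.0173 and 0.0236). Sptlc3, a subunit of serine palmitoyltransferase, which starts ceramide synthesis, rose by 0.80 (SE 0.135, adjusted p = 0.0102), and Sgms1, a sphingomyelin synthase, by 0.72 (SE 0.169, adjusted p = 0.048), a call lost with 32 added (adjusted p = 0.0611). The dimmer Sgms1 probe set rose by 0.86 (SE 0.132, adjusted p = 0.00621). Degs1, the ceramide desaturase, differed by 0.81 (SE 0.214, adjusted p = 0.0786). When dKO replicate 3, or any of the first 3 controls, was left out, 1 of the 5 rose, and when dKO replicate 4 was left out, 4 rose. None of the 5 had an r of at least 0.8 with the 5-gene mean, Fa2h at 0.782 included, although it is part of that mean.

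Soat1 acts on cholesterol, and of 28 listed genes of cholesterol synthesis and uptake 3 had a symbol. Cyp51, an enzyme of the pathway, rose by 0.59 (SE 0.135, adjusted p = 0.045), Sc5d, a later enzyme, fell by 0.89 (SE 0.188, adjusted p = 0.0303), and Abcg1, a sterol exporter, differed by 0.68 (adjusted p = 0.077). Both calls were close to the threshold. With 32 added Cyp51 did not pass (adjusted p = 0.0532), and Sc5d did not pass with quantile normalization or median centring. That of Cyp51 was lost when any array numbered 1, 2 or 3 of either group was left out, and that of Sc5d when dKO replicate 2 or 3, or any control, was left out. Of 20 genes that regulate the sebaceous gland 3 had a symbol. Myc, whose activation is known to drive sebaceous differentiation in mouse epidermis, rose from 460.2 to 698.7 in controls to 1142.0 to 1455.6 in dKO (log2 difference 1.08, SE 0.143, adjusted p = 0.00346). Lrig1, a stem cell marker of the upper follicle, and Lef1, a Wnt effector, did not pass (-0.53 and -0.65).

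**Figure D3:**
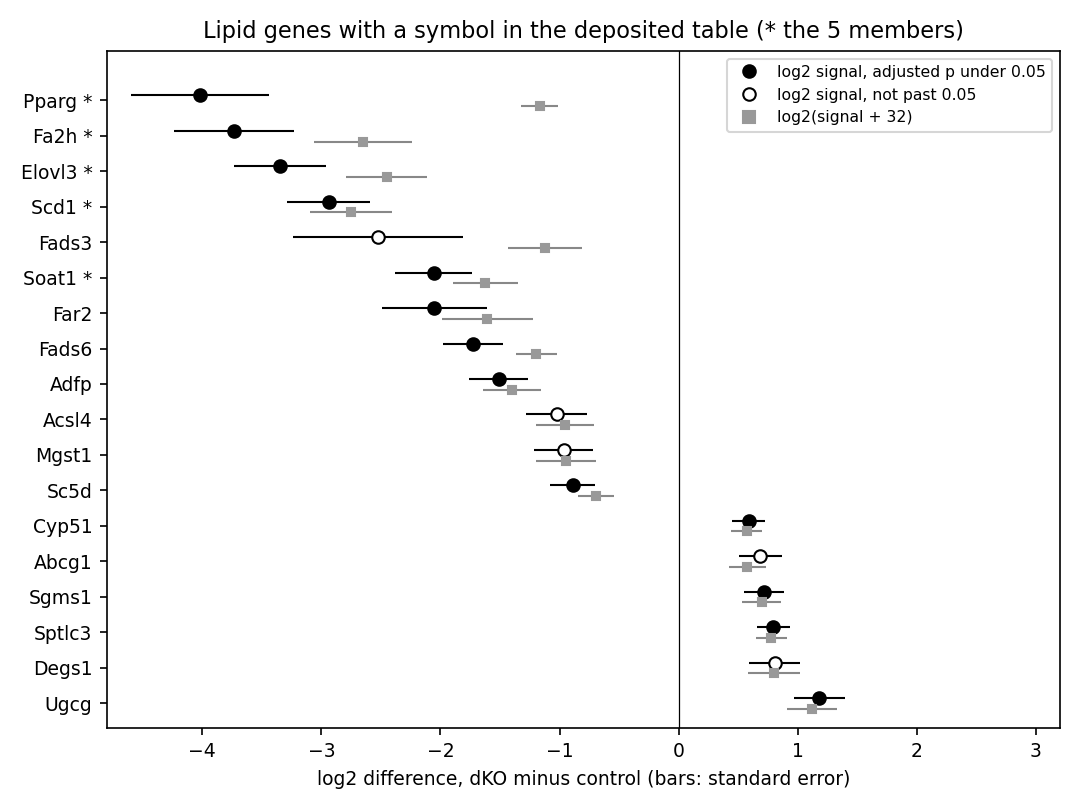
Log2 difference, dKO minus control, with its standard error, as log2 signal (circles, filled where adjusted p is under 0.05) and as log2(signal + 32) (squares). Shown are named genes of the sebocyte, fatty acid and triglyceride, desaturase and elongase, cholesterol, and ceramide and barrier lipid lists. The 5 starred genes run from -4.02 (Pparg) to -2.06 (Soat1), and Ugcg is the highest at 1.18.

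Pparg is also a gene of fat cells, and of 13 adipocyte markers only Retn had a symbol. Of 21 listed PPARG targets Retn had a symbol, and so did Plin2 under its older name Adfp. Adfp fell, as given above (log2 difference -1.51, limma adjusted p = 0.00866). Retn, a secreted protein of fat cells, read 76.2, 56.3, 18.3 and 247.3 in controls and 10.2, 45.1, 28.1 and 35.9 in dKO. The groups overlapped, control replicate 4 was far above the rest, and the log2 difference of -1.35 did not pass (adjusted p = 0.392). No Retn signal was 0, and its part in the Pparg result was not tested.

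Hair follicle genes were also lower in dKO and shared the high and low control arrays of the 5-gene mean. Of 24 hair shaft and root sheath markers 16 had a symbol, of which 13 fell, Krtap13 rose and 2 did not pass, with a median log2 difference of -2.77. Of all named genes 22.3% fell, and the authors had selected these markers on the same arrays. Their summed signal was 23490, 7792, 6288 and 35850 in control replicates 1 to 4 and 4804, 2568, 1607 and 5662 in dKO, with no overlap and with the same high and low controls. By p, the leading members were Krt33a (-5.57, adjusted p = 0.0109), Krt34 (-4.93, adjusted p = 0.0162), Krt71 (-2.86, adjusted p = 0.019), S100a3 (-3.04, adjusted p = 0.023), Krtap13 (4.57, adjusted p = 0.0232) and Krt72 (-2.67, adjusted p = 0.0234). Krt33a and Krt34 were dim in dKO (1.0 to 24.4 and 1.2 to 30.3), and Krtap13 was dim in controls (0.7 to 17.3). Their log2 differences with 32 added were smaller, at -3.03, -2.60 and 1.73 (limma adjusted p = 0.0324, 0.0299 and 0.0377). Krt33a and Krt34 are keratins of the hair shaft, Krt71 and Krt72 of the inner root sheath, and S100a3 is a calcium-binding protein of the hair cuticle. The hair count was less firm than that of the 5 genes, since 5 fell with 32 added and 0 with a robust variance. Leaving out control replicate 1 left 0, leaving out dKO replicate 2 or 3 left 2, and leaving out control replicate 4 or 2 left 6 or 8. The rise of Krtap13 did not pass when dKO replicate 1, 2 or 3 was left out, or without the intensity trend. No marker was at 0.

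Of the 12 hair genes at or above the median level, 11 had an r of at least 0.8 with the 5-gene mean, with a median r of 0.889. In dKO replicates 1 to 4 the mean deviation of the 16 hair genes was 0.52, -0.34, -0.99 and 0.81. That of the 5 genes was 0.04, 0.25, -0.36 and 0.07, another order, although both were lowest in replicate 3. Within arrays, the log2 ratio of each of the 5 genes to the mean of the 16 hair genes was compared between groups. The difference was -0.27 for Scd1, -0.68 for Elovl3, -1.35 for Pparg, 0.61 for Soat1 and -1.06 for Fa2h, with exact two-sided permutation p between 0.114 and 0.486 and adjusted p from 0.321 to 0.486 over the 5 genes. SDs of these ratios were 0.225 to 1.022 in controls and 0.564 to 1.405 in dKO. On the scale with 32 added, the difference was -0.73 for Scd1 (exact permutation p = 0.0571) and turned to 0.85 for Pparg (p = 0.229). Adjusted p on that scale was 0.286 to 0.343. The hair mean includes Krtap13, which rose, and genes that were dim in dKO. A fall larger or smaller than that of the hair genes was thus not shown for any of the 5 on either scale. The part of hair follicle content in the result was not tested.

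Myeloid and Langerhans cell genes were also lower in dKO, but with another pattern over the arrays. Of 19 markers 9 had a symbol, 5 fell (22.3% of all named genes did), 0 rose and 4 did not pass, with a median log2 difference of -1.67. Their summed signal was 3638, 3038, 3854 and 2439 in control replicates 1 to 4 and 509.8, 1434, 678.6 and 1889 in dKO, with no overlap. Ptprc, the leukocyte antigen CD45, differed by -2.10 (adjusted p = 0.00319) and Csf1r, a receptor of macrophages and Langerhans cells, by -1.97 (adjusted p = 0.0101), and Tyrobp (-1.57, adjusted p = 0.0143), C1qc (-1.67, adjusted p = 0.0443) and Fcer1g (-1.81, adjusted p = 0.0496) fell too, while C1qb (-1.53, adjusted p = 0.0736) did not pass. With dKO replicate 4 left out the count was 8, with control replicate 1 or 3 left out it was 2, and with any other array left out, or with 32 added, it was 3. None of the 8 brighter genes had an r of at least 0.8 with the 5-gene mean, and their median r was 0.001. No marker was at 0, and the part of these cells in the result was not tested.

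**Figure D4:**
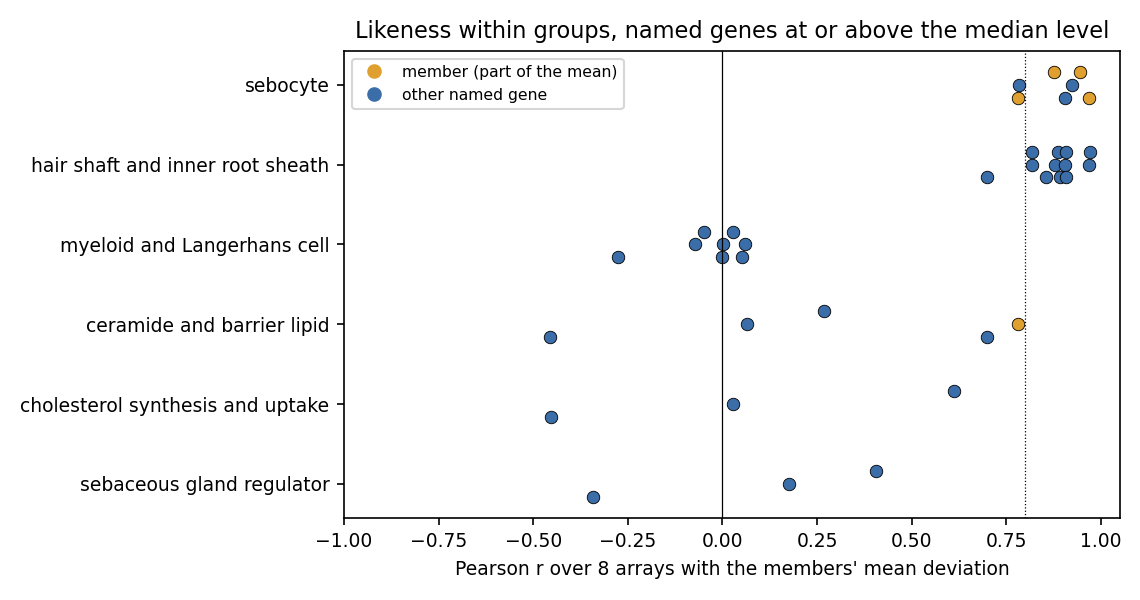
Pearson r over the 8 arrays between each named gene's deviations from its group means and the mean deviation of the 5 genes, by gene list, for genes at or above the median level. Orange points are part of that mean, the dotted line marks 0.8, and 11 of 12 hair genes but 0 of 8 myeloid genes lie at or past it.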

How the data were processed

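Gene expression in 8 newborn epidermis samples (4 dKO, 4 control, grouped by the labels) was measured on Affymetrix arrays. The authors deposited 1 linear intensity per probe set and array. The submitters' processing notes name MAS5 and Partek, with neither role nor version. A check of the values gave a 2% trimmed mean of 250 on every array. No batch, scan date or detection call was used here, and the number of arrays limits the precision. Per the file headers, the authors' deposited table of 2007 probe sets gives a ratio of dKO over control, an F statistic (a score) and an unadjusted p-value. Its smallest absolute fold was 1.5 and its largest p-value 0.0499. How the ratios were normalized is not known here, and 71 entries with several symbols were left out.

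The intensity values were converted to log2 with no offset and no further normalization. The 64 control probe sets of the manufacturer and 5 that read 0 on an array were dropped from the 45101. For the remaining 45032, limma 3.58.1 (R 4.3.3) was run (lmFit, eBayes with an intensity trend, genotype the only term), with Benjamini-Hochberg adjustment over all of them and a threshold of 0.05. "Rose" and "fell" refer to that threshold. Its p-values set the group difference against the spread between samples of a group, with variances moderated over all probe sets. The brightest probe set stood for a gene. Alternatives were no trend, robust variance, log2(signal + 32), quantile normalization, median centring, a filter at the median level, the replicate number as a block, other probe sets and each array left out. Leaving out both arrays numbered 4, and median centring for the control spread, were added after seeing the data. Same-numbered arrays had correlations of -0.088 to 0.043 between their deviations over 22516 probe sets, so no profile shared by number was seen. With 4 arrays per group this cannot settle whether samples were paired. No pair of arrays was identical.

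Named in the text were every probe set of the 5 genes, Insr and Igf1r, and the 6 named genes most like the 5. Of each list, all named members were given where there were up to 6, and otherwise the 6 with the smallest p. The sebocyte list was an exception, with all 8 named members given. The genes and the lists were chosen with earlier results of these data known. A simulation of 45032 probe sets used the observed means and spreads with independent noise. Only probe sets at or above the median level were changed in it. It gave back 50% of 100 probe sets changed by 1 on the log2 scale and 96% of 100 changed by 2, with 3.31% of 151 calls false. It does not cover changes in dim probe sets, such as that of Pparg, or deviations shared by many genes of an array.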

Additional observations from a re-analysis of the deposited data

Results flagged for a closer look

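In 114 groups of 4 arrays of the genes described above, 5 had 1 array set apart by a gap that was larger, relative to the group's range, than Dixon's critical value for 4 samples. Chance gives about 1 such group in 20. Among the 5 lipid genes, the dimmer Scd1 probe set read 89.5 in dKO replicate 2 (gap 0.884 of the range), Pparg read 72.3 in control replicate 4 (0.868) and Fa2h read 11.5 in dKO replicate 4 (0.858). Of the other genes, Cyp51 read 1218.1 in dKO replicate 4 (0.878) and Krtap13 read 278.8 in dKO replicate 1 (0.881).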

How the results depend on the processing

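All 5 differences kept their direction under every alternative that gave a value. Other probe sets not counted, these were 15 for Pparg (below the median-level filter) and 16 for each other gene. Pparg kept its call under all 15, and each other gene under all but 1. Without the intensity trend 1 of 8 probe sets fell, and the differences of -2.94 (Scd1), -3.35 (Elovl3), -2.06 (Soat1) and -3.73 (Fa2h) no longer passed. There, 60 probe sets changed and 40 were lower, against 1012 and 565. The sebocyte count was then 1 and the hair, myeloid and rising ceramide counts 0. The cause was not tested. Leaving out 1 array gave 353 to 1417 changed and 158 to 793 lower probe sets, and all 8 probe sets fell each time, with log2 differences of -3.18 to -2.65 for Scd1, -3.61 to -3.01 for Elovl3, -4.19 to -3.71 for Pparg, -2.27 to -1.82 for Soat1 and -4.08 to -3.33 for Fa2h. Leaving out both arrays numbered 4 gave 1525 changed probe sets, and median centring gave 322 lower ones. The median log2 range over controls was 1.59, and 1.56 to 1.66 under the alternatives. With the replicate number as a block, 698 probe sets changed and 379 were lower, all 8 fell, and adjusted p was 0.000617 for Scd1 and Elovl3, 0.0139 for Pparg, 0.00756 for Soat1 and 0.00952 for Fa2h, while Cyp51 and Sc5d did not pass. With quantile normalization 6 of the 6 most alike genes were the same, and with 32 added 5. Signals had no detection call, so depth over background is unknown, which bears most on Pparg in dKO.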
